A study of Mus musculus with 8 samples.

Results

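Levels of 9 genes that encode proteins of neutrophil primary granules, or proteins made alongside them in early granulocytic cells, were followed through sorted bone marrow progenitors. They are the peroxidase gene Mpo, the serine protease genes Elane, Prtn3 and Ctsg, the protease inhibitor gene Cst7, the proteoglycan gene Srgn, and Ms4a3, Plac8 and Hp. They were chosen by name, and each was measured by the non-control probes assigned to one of its RefSeq transcripts. This gave 10 of the 55681 non-control probes and 9 of the 20145 gene symbols on the array, with 2 probes for Plac8 and 1 for each other gene. All 10 probes passed the filter on dim probes, and 9 were well above background on all 8 arrays. The Prtn3 probe was well above background on every array except deficient LSK replicate 2.

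The study compared female mice lacking ACKR1 (a chemokine-binding receptor that does not signal through G proteins) with wild-type littermates. The deficient line had been backcrossed to C57Bl/6J for more than 12 generations and kept by heterozygous breeding, and all mice were 12 weeks old. LSK cells (lineage-negative, Sca1-positive, cKit-positive), which hold stem cells and multipotent progenitors, and GMP (lineage-negative, Sca1-negative, cKit-positive, CD34-positive, CD16/32-positive), the granulocyte-macrophage progenitors, were sorted from bone marrow. Each of the 4 groups, wild-type LSK, deficient LSK, wild-type GMP and deficient GMP, had 2 one-colour Agilent arrays. The labels do not describe the disrupted allele further, nor say whether an array held RNA of 1 animal or of a pool. P-values therefore cover the spread between these arrays alone, and that spread may be technical.

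Primary granules are the first granules to form as a granulocyte precursor matures, at the promyelocyte stage. Their serine proteases are made as inactive precursors, trimmed by cathepsin C and held in the granule matrix on serglycin, and myeloperoxidase turns hydrogen peroxide and chloride into hypochlorous acid. These genes are strongly transcribed in granulocyte-macrophage progenitors and promyelocytes under factors such as C/EBP alpha, PU.1, GFI1 and MYB, and most are shut off before the secondary granules form.

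Levels below are log2 signal minus the 75th percentile of non-control signal on that array, so 0 is that percentile and 1 unit is a doubling. The arrays differed in signal: 62.5% to 73.1% of spots were well above background on 7 arrays and 34.3% on deficient LSK replicate 2. The mean correlation across probes with the other arrays of its population was 0.748 for that array, against 0.849 to 0.887 for the other LSK arrays, and 0.874 for deficient GMP replicate 1, against 0.928 to 0.94 for the other GMP arrays. One alternative left both of these arrays out. Deficient replicates correlated with each other across probes at 0.772 in LSK and 0.888 in GMP, against 0.94 and 0.973 for the wild-type replicates. Deficient arrays filled slide column 1 and wild-type arrays column 2, and genotype and column cannot be told apart. The sort labels were set against marker genes: 15 genes of stem cell and LSK identity averaged 2.70 and 3.11 on the wild-type LSK arrays and −0.42 and −0.64 on the wild-type GMP arrays. The same mean was 2.29 and 1.37 for deficient LSK and 0.69 and 0.41 for deficient GMP, so the 2 populations lay closer together in the deficient arrays. In the list of GMP identity genes the mean was 3.0 and 2.99 on wild-type GMP arrays, 2.30 and 2.60 on deficient GMP arrays, and between 0.27 and 1.27 on the LSK arrays. No marker gene of either list was below background on all arrays of the population it marks.

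The promoters of the peroxidase and of the 3 serine proteases are shown because these enzymes form the core of the granule. Each window is 300 bases, from 250 before to 50 after the transcription start, taken from the RefSeq promoter table on build GRCm38.p6 and written 5′ to 3′ on the strand of the gene. Capitals mark GAGGAA (the core letters of PU.1 sites), TTGCNNAA (C/EBP) and TGTGGT (RUNX) on either strand.
Mpo, chr11:87793534-87793833, plus strand: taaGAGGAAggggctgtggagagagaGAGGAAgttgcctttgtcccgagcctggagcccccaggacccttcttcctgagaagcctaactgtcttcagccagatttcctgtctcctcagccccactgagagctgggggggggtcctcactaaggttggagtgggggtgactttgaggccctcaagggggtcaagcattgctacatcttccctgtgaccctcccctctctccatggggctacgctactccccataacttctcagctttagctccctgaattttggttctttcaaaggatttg
Elane, chr10:79886062-79886361, plus strand: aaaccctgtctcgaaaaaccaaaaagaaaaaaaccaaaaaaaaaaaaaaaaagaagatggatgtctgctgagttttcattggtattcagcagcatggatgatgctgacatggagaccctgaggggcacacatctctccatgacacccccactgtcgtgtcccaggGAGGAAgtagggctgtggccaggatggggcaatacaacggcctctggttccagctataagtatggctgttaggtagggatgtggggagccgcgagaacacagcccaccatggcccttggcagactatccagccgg
Prtn3, chr10:79879417-79879716, plus strand: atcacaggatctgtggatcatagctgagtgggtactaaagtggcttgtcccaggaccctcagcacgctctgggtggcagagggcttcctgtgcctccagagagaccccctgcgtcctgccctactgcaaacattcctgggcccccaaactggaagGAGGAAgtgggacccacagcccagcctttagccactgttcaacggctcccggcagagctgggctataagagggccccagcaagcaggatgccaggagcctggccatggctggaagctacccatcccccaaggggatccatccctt
Ctsg, chr14:56102525-56102824, minus strand: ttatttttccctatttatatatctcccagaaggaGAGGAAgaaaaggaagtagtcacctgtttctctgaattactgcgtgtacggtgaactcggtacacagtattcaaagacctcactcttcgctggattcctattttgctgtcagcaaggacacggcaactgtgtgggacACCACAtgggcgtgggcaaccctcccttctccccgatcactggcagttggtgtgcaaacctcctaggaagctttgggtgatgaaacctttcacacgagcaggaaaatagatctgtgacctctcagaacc
Elane and Prtn3 are neighbouring coding genes on chromosome 10, with Cfd, the factor D gene, on the other side of Elane. GAGGAA began 85 bases before the start in Elane and 95 before it in Prtn3, on the strand of the gene in both. In Mpo it began 247 and 224 bases before the start, and in Ctsg 216 before it. Ctsg also held TGTGGT on the opposite strand, 79 bases before the start, and TTGCNNAA was not in any of these 4 windows. Of the 9 genes, 8 had an entry in the table, with 10 windows in all, and Hp had none. GAGGAA was in 6 of those 10 windows and in 28.3% of all 32851 windows of the table. TTGCNNAA was in 3 of the 10 against 10.8% of all windows, TGTGGT in 4 against 16.8%, and AACNG, the letters of MYB sites, in 9 against 80.3%. Some genes have more than 1 window, so the 10 are not independent. AACNG is not capitalised above because most windows hold it. A match describes these letters alone.

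**Figure D1:**
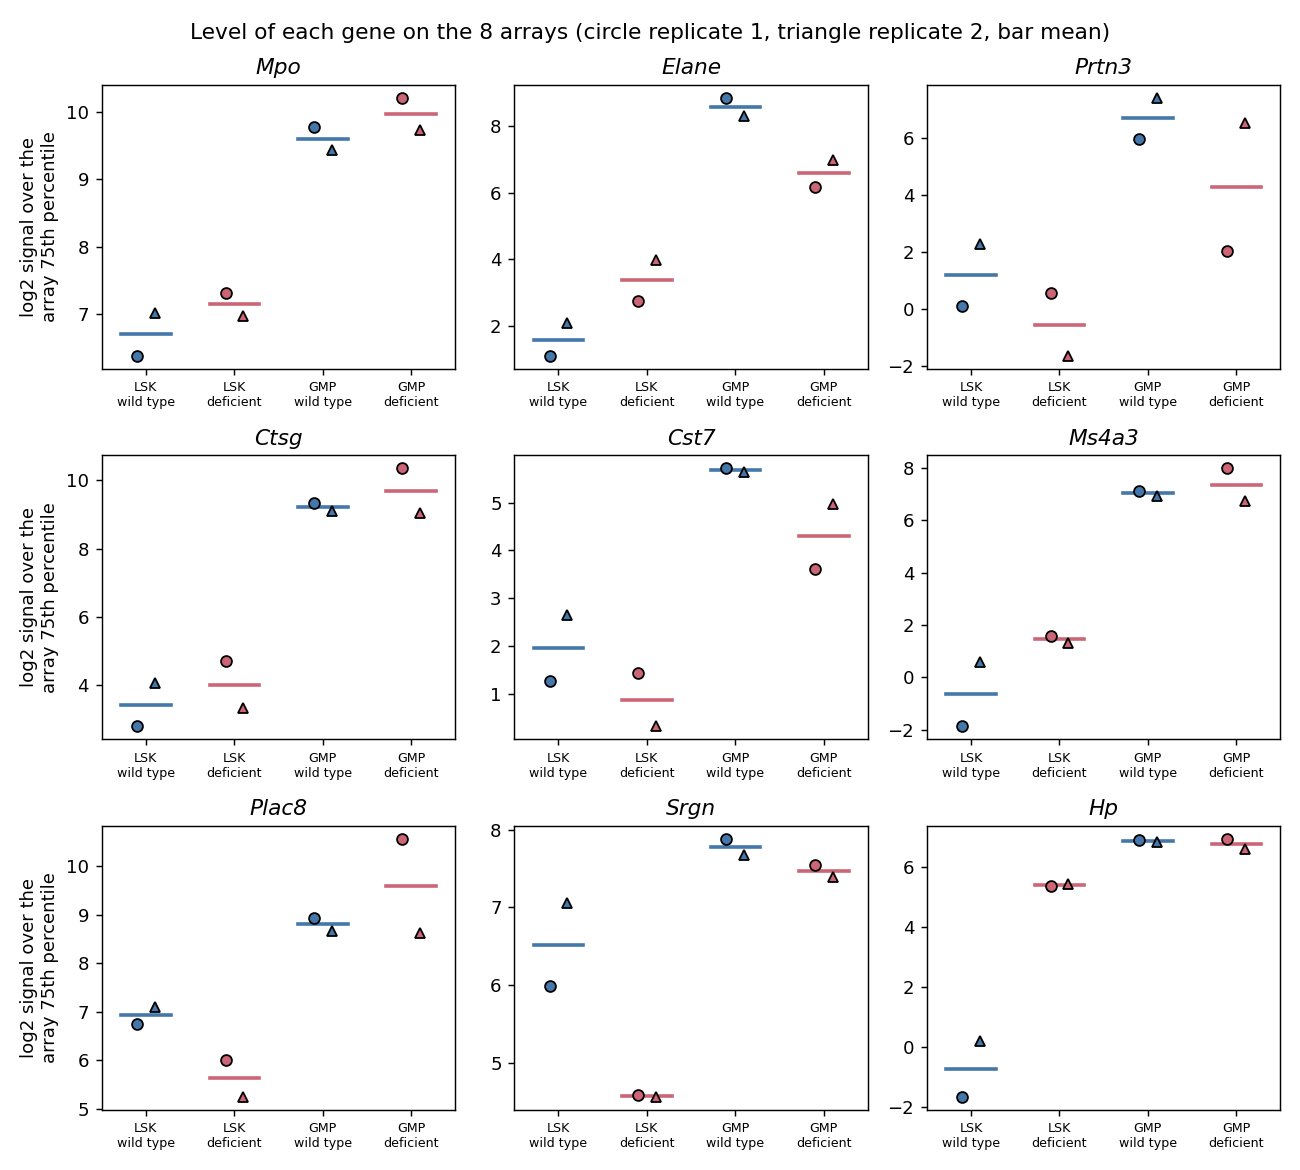
Level of each of the 9 genes on the 8 arrays (y axis, log2 signal over the array's 75th percentile; x axis, the 4 groups; circle, replicate 1; triangle, replicate 2; bar, group mean). Every GMP array lies above every LSK array for 8 of the 9 genes, and Hp in deficient LSK lies at 5.35 and 5.41, under its GMP levels of 6.58 to 6.93.

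Mpo, which encodes myeloperoxidase, measured 6.38 and 7.02 on the wild-type LSK arrays against 7.32 and 6.98 on the deficient ones, and 9.77 and 9.43 on the wild-type GMP arrays against 10.20 and 9.73 on the deficient ones. It lay above the 75th percentile on every LSK array, GMP lay above LSK in both genotypes, and the genotypes overlapped within each population. From low to high the groups ran wild-type LSK, deficient LSK, wild-type GMP and deficient GMP, and the only neighbours that did not overlap were deficient LSK and wild-type GMP. GMP minus LSK was 2.90 (SE 0.65, 7.45-fold, adjusted p = 0.0681) in wild type and 2.82 (SE 0.65, 7.05-fold, adjusted p = 0.147) in deficient cells. Neither passed the threshold of 0.05, with p from limma adjusted by Benjamini-Hochberg over all 39120 probes tested, as for every adjusted p here. The wild-type difference uses no deficient array, and those arrays enter only its estimate of spread. Leaving out deficient LSK replicate 2 and deficient GMP replicate 1 gave the same fit as the 4 wild-type arrays alone. In that fit the wild-type value passed (adjusted p = 0.0297). For Mpo, the deficient minus the wild-type array of the same slide row was 0.93 and −0.046 in LSK and 0.44 and 0.29 in GMP. The fitted genotype difference was 0.44 in LSK (95% interval −1.0 to 1.89) and 0.37 in GMP (−1.08 to 1.81).

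Elane, which encodes neutrophil elastase, measured 1.10 and 2.08 on the wild-type LSK arrays against 2.76 and 3.98 on the deficient ones, and 8.86 and 8.32 on the wild-type GMP arrays against 6.18 and 6.99 on the deficient ones. Both deficient LSK arrays lay above both wild-type LSK arrays, and both deficient GMP arrays lay below both wild-type GMP arrays. The order of the groups was wild-type LSK, deficient LSK, deficient GMP and wild-type GMP, with no overlap between neighbours. Elane rose from LSK to GMP in wild type by 7.0 (SE 0.74, 128-fold, adjusted p = 0.00505), and the same difference in deficient cells was 3.22 (SE 0.74, 9.29-fold, adjusted p = 0.147). For Elane, the deficient minus the wild-type array of the same slide row was 1.67 and 1.90 in LSK and −2.67 and −1.32 in GMP. As group means, deficient minus wild type was 1.79 in LSK (SE 0.74, interval 0.13 to 3.44, adjusted p = 0.574) and −2.00 in GMP (SE 0.74, interval −3.65 to −0.34, adjusted p = 0.963). Neither passed the threshold. Without deficient LSK replicate 2 the LSK value was 1.17, with normexp background correction it was 0.62, and without deficient GMP replicate 1 the GMP value was −1.59.

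Prtn3, which encodes proteinase 3, measured 0.10 and 2.31 on the wild-type LSK arrays against 0.56 and −1.63 on the deficient ones, and 5.98 and 7.42 on the wild-type GMP arrays against 2.06 and 6.53 on the deficient ones. Its replicates lay far apart in every group (SD between 1.02 and 3.16), and deficient GMP replicate 1, at 2.06, lay under the higher wild-type LSK array. It was the only one of the 9 genes with such an overlap between populations. The order was deficient LSK, wild-type LSK, deficient GMP and wild-type GMP, and every pair of neighbours overlapped. GMP minus LSK was 5.49 (SE 1.42, adjusted p = 0.125) in wild type and 4.83 (SE 1.42, adjusted p = 0.188) in deficient cells. For Prtn3, the deficient minus the wild-type array of the same slide row was 0.46 and −3.94 in LSK and −3.92 and −0.89 in GMP. Fitted over both replicates, this difference was −1.74 in LSK (interval −4.91 to 1.43) and −2.41 in GMP (interval −5.58 to 0.77), and it was −0.17 in GMP without deficient GMP replicate 1.

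Ctsg, which encodes cathepsin G and lies on chromosome 14 between Mcpt8 and Gzme, measured 2.81 and 4.08 on the wild-type LSK arrays against 4.70 and 3.35 on the deficient ones, and 9.33 and 9.10 on the wild-type GMP arrays against 10.34 and 9.04 on the deficient ones. Populations were far apart and genotypes overlapped in both. The order was that of Mpo, and the only neighbours that did not overlap were again deficient LSK and wild-type GMP. Ctsg rose from LSK to GMP in wild type by 5.77 (SE 0.80, 54.7-fold, adjusted p = 0.00995), and the same difference in deficient cells was 5.66 (SE 0.80, 50.7-fold, adjusted p = 0.116). For Ctsg, the deficient minus the wild-type array of the same slide row was 1.90 and −0.73 in LSK and 1.01 and −0.069 in GMP. The fitted genotype difference was 0.58 in LSK (interval −1.21 to 2.37) and 0.47 in GMP (interval −1.32 to 2.26).

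Among the genes whose products act on the proteases or hold them, Cst7 encodes cystatin F, an inhibitor of cysteine cathepsins that include cathepsin C. Its levels were 1.27 and 2.65 on the wild-type LSK arrays against 1.44 and 0.31 on the deficient ones, and 5.72 and 5.65 on the wild-type GMP arrays against 3.61 and 4.98 on the deficient ones. LSK genotypes overlapped, and both deficient GMP arrays lay below both wild-type ones. The order was that of Prtn3, with an overlap only between the LSK groups. GMP minus LSK was 3.72 (SE 0.79, 13.2-fold, adjusted p = 0.0559) in wild type and 3.42 (SE 0.79, adjusted p = 0.147) in deficient cells. For Cst7, the deficient minus the wild-type array of the same slide row was 0.16 and −2.34 in LSK and −2.11 and −0.67 in GMP. As group means, deficient minus wild type was −1.09 in LSK (interval −2.87 to 0.69) and −1.39 in GMP (interval −3.17 to 0.39, adjusted p = 0.963).

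Srgn encodes serglycin, the proteoglycan core that binds basic proteases in the granule. Its levels were 5.99 and 7.05 on the wild-type LSK arrays against 4.59 and 4.56 on the deficient ones, and 7.88 and 7.67 on the wild-type GMP arrays against 7.55 and 7.39 on the deficient ones. Within each population both deficient arrays lay below both wild-type arrays, by a wide margin in LSK and a narrow one in GMP. The order was that of Prtn3, and no neighbours overlapped. GMP minus LSK was 1.25 (SE 0.66, adjusted p = 0.763) in wild type and 2.89 (SE 0.66, 7.42-fold, adjusted p = 0.147) in deficient cells. For Srgn, the deficient minus the wild-type array of the same slide row was −1.40 and −2.49 in LSK and −0.33 and −0.29 in GMP. Fitted over both replicates, this difference was −1.95 in LSK (SE 0.66, interval −3.42 to −0.47, adjusted p = 0.540) and −0.31 in GMP (interval −1.78 to 1.16), neither past the threshold.

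Ms4a3 encodes a four-pass membrane protein made by granulocyte-macrophage progenitors and their progeny, and lies beside Ms4a2 on chromosome 19. Its levels were −1.88 and 0.58 on the wild-type LSK arrays against 1.59 and 1.31 on the deficient ones, and 7.14 and 6.92 on the wild-type GMP arrays against 7.99 and 6.75 on the deficient ones. Both deficient LSK arrays lay above both wild-type LSK arrays, and GMP genotypes overlapped. The order was that of Mpo, with an overlap only between the GMP groups. Ms4a3 rose from LSK to GMP in wild type by 7.68 (SE 0.88, 205-fold, adjusted p = 0.00598), and the same difference in deficient cells was 5.92 (SE 0.88, 60.5-fold, adjusted p = 0.116). For Ms4a3, the deficient minus the wild-type array of the same slide row was 3.47 and 0.73 in LSK and 0.86 and −0.17 in GMP. The fitted genotype difference was 2.10 in LSK (SE 0.88, interval 0.13 to 4.06, adjusted p = 0.574) and 0.34 in GMP (interval −1.62 to 2.31).

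Plac8 encodes a small cysteine-rich protein abundant in myeloid cells. Its brighter probe gave 6.75 and 7.11 on the wild-type LSK arrays against 6.01 and 5.25 on the deficient ones, and 8.94 and 8.66 on the wild-type GMP arrays against 10.56 and 8.62 on the deficient ones. Both deficient LSK arrays lay below both wild-type LSK arrays, and the GMP genotypes overlapped because the deficient replicates lay on both sides of the wild-type pair. GMP minus LSK at that probe was 1.87 (SE 0.78, adjusted p = 0.560) in wild type and 3.96 (SE 0.78, 15.5-fold, adjusted p = 0.145) in deficient cells. For Plac8, the deficient minus the wild-type array of the same slide row was −0.73 and −1.86 in LSK and 1.62 and −0.034 in GMP. As group means, deficient minus wild type was −1.30 in LSK (interval −3.04 to 0.45) and 0.79 in GMP. The second probe lay on the same side in LSK (−2.03) and in both population contrasts (2.60 and 3.34), and on the other side in GMP (−1.29), so the 2 probes disagree there. From low to high the groups at the brighter probe ran deficient LSK, wild-type LSK, wild-type GMP and deficient GMP, with an overlap only between the GMP groups.

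Hp encodes haptoglobin, the haemoglobin-binding protein, which in human neutrophils is known from the secondary granules rather than the primary ones. Its levels were −1.68 and 0.20 on the wild-type LSK arrays against 5.35 and 5.41 on the deficient ones, and 6.90 and 6.83 on the wild-type GMP arrays against 6.93 and 6.58 on the deficient ones. Wild-type LSK stood alone at the low end, deficient LSK lay below every GMP array but nearer to GMP than to wild-type LSK, and the GMP genotypes overlapped. The order was that of Elane. Hp rose in deficient LSK by 6.12 (SE 0.75, 69.6-fold, interval 4.45 to 7.79, adjusted p = 0.0175), and it was the one gene of the 9 that passed between genotypes in either population. For Hp, the deficient minus the wild-type array of the same slide row was 7.03 and 5.21 in LSK and 0.026 and −0.25 in GMP. The GMP difference was −0.11 (SE 0.75, interval −1.79 to 1.56). The LSK difference stayed between 5.18 and 7.06 when each array was left out in turn, but adjusted p was 0.165 without wild-type LSK replicate 1, 0.0798 without wild-type LSK replicate 2 and 0.175 without deficient LSK replicate 2. It was 0.141 without deficient LSK replicate 2 and deficient GMP replicate 1 together, 0.194 with arrays scaled to their medians, 0.0856 with no filter on dim probes and 0.149 with array weights. From LSK to GMP, Hp rose in wild type by 7.61 (SE 0.75, 195-fold, adjusted p = 0.00457), whereas the same difference in deficient cells was 1.37 (SE 0.75, 2.59-fold, adjusted p = 0.389).

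Between populations in wild type, the question was how far transcripts of the 9 genes increase from LSK to GMP. All 9 genes had both GMP arrays above both LSK arrays, and 4 passed the test: the protease genes Elane and Ctsg, and Ms4a3 and Hp. Over all probes, 1.54% passed in either direction, 0.378% passed as higher in GMP, and 26.5% had both GMP arrays above both LSK arrays. The median difference was 5.49 over the 9 genes and −0.013 over all probes. The genes that did not pass were Mpo, Cst7, Prtn3, Plac8 and Srgn, with differences between 1.25 and 5.49. At an unadjusted p under 0.05, 8 of the 9 passed, the exception being Srgn, against 7.96% of probes. No gene of the 9 passed without wild-type LSK replicate 1, where adjusted p was 0.0674 for Elane, 0.0672 for Ms4a3, 0.0667 for Hp and 0.121 for Ctsg. Ctsg also missed without wild-type LSK replicate 2 or either wild-type GMP array (adjusted p between 0.0677 and 0.0779). In bulk samples of sorted cells, more cells making a transcript and more transcript in each cell cannot be told apart. Markers of other cell types also rose from LSK to GMP in wild type: 5 of 12 monocyte and macrophage genes and 7 of 15 mast cell, basophil and eosinophil genes passed as higher. Both counts were 0 without wild-type LSK replicate 1, and 0 or 1 without any other wild-type array. The mean of the former was −1.45 and −0.91 on the LSK arrays and 2.02 and 1.91 on the GMP arrays, and of the latter −2.42 and −2.49 against 1.04 and 1.07. The part of these cells in the difference between populations was not tested.

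Between populations in deficient cells, all 9 genes again had both GMP arrays above both LSK arrays, against 16.4% of all probes in that direction. None passed by limma, and no probe of any gene did (0%), while 8 of the 9 were at an unadjusted p under 0.05, against 16.2% of probes. The median difference was 3.42 over the 9 genes and −0.19 over all probes. This contrast uses other arrays than the wild-type one, but each shares arrays with the genotype comparisons. Without deficient LSK replicate 1, the median difference was 3.98 over the 9 genes and −0.50 over all probes. Over both genotypes together, every GMP array lay above every LSK array for 8 of the 9 genes, all but Prtn3, and for 6.76% of all probes.

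**Figure D2:**
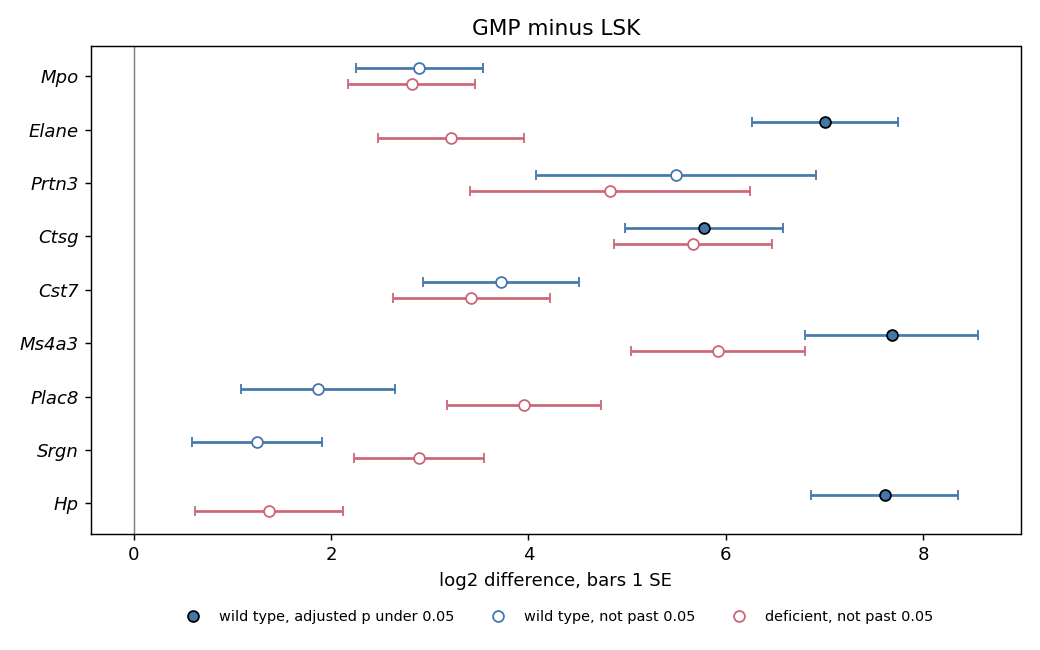
Difference between GMP and LSK for each gene (x axis, log2 difference; bars, 1 SE; blue, wild type; red, deficient; filled, adjusted p under 0.05). All differences lie above 0, those of Mpo, Ctsg and Cst7 nearly coincide between genotypes, and those of Elane and Hp are larger in wild type, with 7.0 against 3.22 and 7.61 against 1.37, although the differences between genotypes themselves did not pass.

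Between genotypes in LSK, the question was whether loss of ACKR1 altered these transcripts in stem cells and multipotent progenitors. Hp rose, and no other gene of the 9 passed, against 0.202% of all probes that passed, all as higher. For Elane, Ms4a3 and Hp the deficient pair lay wholly above the wild-type pair, and for Plac8 and Srgn wholly below it. Among all probes 17.8% lay above and 19% below in this way, so a count of 5 in 9 stands beside a background of 36.9%. At an unadjusted p under 0.05, Elane, Ms4a3, Srgn and Hp passed, against 8.55% of probes. The median difference was 0.44 over the 9 genes and 0.20 over all probes. The median of the 9 genes turned to −0.43 with normexp background correction, −0.13 with median scaling, −0.055 without wild-type LSK replicate 1 and −0.093 without deficient LSK replicate 1. That median of all probes depends on scaling: it was −0.23 after quantile normalization, −0.37 with median scaling and 0.58 with normexp background correction. Mpo was above 0 at 0.44 but below it at −0.13 with median scaling and −0.43 with normexp, and Ctsg was −0.42 with normexp.

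Marker genes of other cell types differed between the genotypes as well. Of 18 mature neutrophil genes tested, 10 rose in deficient LSK and 8 in deficient GMP, and 0 fell. These counts depended on single arrays. The LSK count was 0 without deficient LSK replicate 2 and with array weights, 1 and 2 without wild-type LSK replicates 1 and 2, and 12 without deficient LSK replicate 1, where 1 gene of the list fell. The GMP count was 2 without deficient GMP replicate 1, 2 to 6 with any 1 array left out, and 0 when GMP was fitted without the LSK arrays. Both counts were 0 without deficient LSK replicate 2 and deficient GMP replicate 1 together. Mmp8, the neutrophil collagenase, was at least 437-fold higher in deficient LSK, and Retnlg at least 1310-fold higher in deficient GMP. Both folds are bounds, since Mmp8 was not well above background on any wild-type LSK array, nor Retnlg on any wild-type GMP array. Mmp8 missed the threshold without deficient LSK replicate 2 (adjusted p = 0.0925), and Retnlg passed with any 1 array left out but missed when GMP was fitted without the LSK arrays (adjusted p = 0.262). The mean of that list was −2.72 and −2.17 on wild-type against 3.81 and 3.27 on deficient LSK arrays, and −1.52 and −1.02 on wild-type against 3.66 and 3.80 on deficient GMP arrays. Between 12 and 16 of the 18 genes were well above background on the wild-type arrays and between 15 and 18 on the deficient ones. Of 18 erythroid genes, 4 rose in deficient LSK and 6 in deficient GMP, with list means of −2.10 and −0.93 against 3.39 and 2.99 in LSK and −2.53 and −2.16 against 3.18 and 2.90 in GMP. The erythroid count in LSK was 0 without wild-type LSK replicate 1, without deficient LSK replicate 2 or with array weights, and 8 without deficient LSK replicate 1. In GMP it was 0 without deficient GMP replicate 1 or when fitted without the LSK arrays, and at most 4 with any 1 array left out. In the B lineage list 1 of 11 genes rose in each population, the B cell gene Ms4a1, with list means between −3.37 and −2.30 on wild-type and between −1.23 and −0.46 on deficient arrays. In LSK, Ms4a1 missed with normexp background correction (adjusted p = 0.126), quantile normalization (0.192), median scaling (0.329), no filter on dim probes (0.143) and array weights (0.317). In GMP it missed with normexp (0.841), quantile normalization (0.505), median scaling (0.328) and only the 4 arrays compared (0.435). There it also missed with the authors' deposited table (0.0572) and no filter on dim probes (0.197). With 1 array left out, its difference was 5.32 to 6.62 in LSK and 5.02 to 7.17 in GMP. The LSK call was lost without deficient LSK replicate 2 or either wild-type LSK array. The GMP call was kept only when the array left out was deficient GMP replicate 2. Lists of monocytes and macrophages, of megakaryocytes and platelets, of T and NK cells, and of mast cells, basophils and eosinophils had 0 genes past the threshold between genotypes by limma in either population. At an unadjusted p under 0.05 they had 4, 0, 4 and 5 genes in LSK and 2, 7, 1 and 2 in GMP. These are in that order, of 12, 12, 11 and 15 genes tested. The LSK and GMP identity lists, with 15 and 9 genes tested, also had 0 called. They had 2 and 2 genes at an unadjusted p under 0.05 in LSK and 4 and 0 in GMP. Over all probes the share at that level was 8.55% in LSK and 4.58% in GMP. Hp rose in LSK beside the neutrophil list and differed by −0.11 in GMP, where 8 genes of that list rose as well. The part of such cells in the genotype differences was not tested.

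Between genotypes in GMP, the same question was asked of the committed progenitors. None of the 9 genes passed by limma, against 0.107% of all probes, and 1 passed at an unadjusted p under 0.05, Elane, against 4.58% of probes. For Elane, Cst7 and Srgn the deficient pair lay wholly below the wild-type pair, and for none wholly above it, against 19% and 20.3% of probes and 39.2% in either direction. The median difference was −0.11 over the 9 genes and 0.15 over all probes, and that of the 9 genes was 0.060 without deficient GMP replicate 2 and 0.11 over the 8 whose probes were well above background on all arrays. Replicates lay farther apart in deficient than in wild-type GMP for 8 of the 9 genes, with a median gap of 1.24 against 0.22, and for 76.1% of all probes. In LSK this held for 3 of the 9 genes and for 71.6% of probes. Without deficient GMP replicate 1, Ctsg (−0.18), Ms4a3 (−0.28) and Plac8 (−0.18) lay below 0.

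Averaged over both populations, Hp passed with a difference of 3.0 (SE 0.53, adjusted p = 0.0492) and the other 8 genes did not, against 0.47% of all probes. That call was lost whenever any 1 of the 8 arrays was left out. The genotype difference in GMP minus that in LSK passed for no gene of the 9 and for 0% of probes by limma, while 2 of the 9, Hp and Elane, and 2.39% of probes were at an unadjusted p under 0.05. It was −6.23 for Hp (SE 1.06, adjusted p = 0.755) and −3.78 for Elane (SE 1.05, adjusted p = 0.975). With slide row as a block, Hp passed (adjusted p = 0.0410). For Plac8 it was 2.09, for Ms4a3 −1.76 and for Srgn 1.64.

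**Figure D3:**
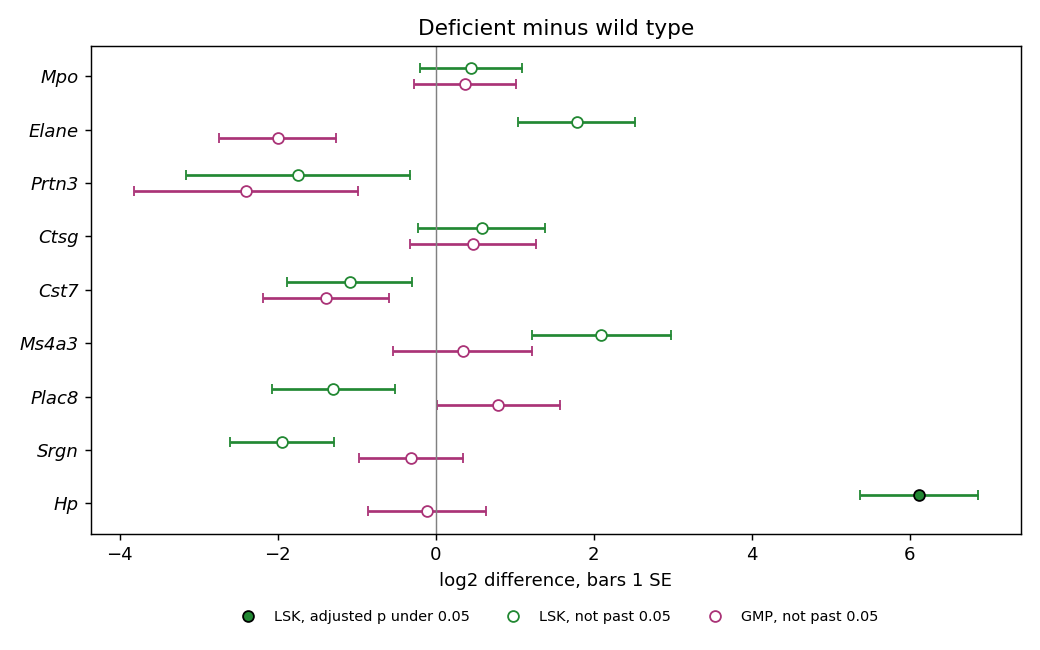
Difference between deficient and wild type for each gene (x axis, log2 difference; bars, 1 SE; green, LSK; purple, GMP; filled, adjusted p under 0.05). Hp in LSK at 6.12 is the only filled point, and Elane lies at 1.79 in LSK and −2.00 in GMP.

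Other proteins of the primary granules and of early granulocytes were described from a list of 35 genes tested. From LSK to GMP in wild type 8 rose and 0 fell, with a list median of 2.19. The count was 0 without wild-type LSK replicate 1 and 1 without any other wild-type array. The 3 largest were Igsf6, an immunoglobulin-family receptor of myeloid cells (7.04), Prg2, the eosinophil major basic protein (6.37), and Dmkn (5.92). Prg2 also stands in the mast cell, basophil and eosinophil list. Prss57, another neutrophil serine protease, differed by 2.92 (adjusted p = 0.0878) in wild type and 2.99 (adjusted p = 0.147) in deficient cells, and Lyz2, a lysozyme, by 1.80 and 0.073. In deficient cells none passed between populations by limma (list median 1.58), and Dmkn (4.98) and Prg2 (4.04) differed most. At an unadjusted p under 0.05 there were 15 of the 35, against 16.2% of all probes. Between genotypes in LSK 1 rose, Fcnb, the ficolin of granulocytes. It was at least 13.3-fold higher (adjusted p = 0.0496), a bound because Fcnb was above background on 1 deficient and 0 wild-type LSK arrays. Fcnb missed with array weights (adjusted p = 0.396) and under each other background correction or scaling (0.188 to 0.432). It also missed with the authors' deposited table (0.0635), 1 probe a gene (0.0537) and no filter on dim probes (0.164). With 1 array left out its LSK difference was 5.06 to 5.80. The LSK call of Fcnb was lost without deficient LSK replicate 2 or either wild-type LSK array. Igsf6 (3.58) and Ear1 (3.55) were the next largest and did not pass, and the list median was 0.32. In GMP 0 passed between genotypes by limma, with a median of −0.32, and Ctsz (−2.06) and Lyz1 (2.02) differed most. At an unadjusted p under 0.05 there were 2 of the 35, against 4.58% of all probes.

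Genes that process, store or inhibit the proteases made a list of 39 tested. Wfdc21, a member of the secretory protease inhibitor family, rose in deficient LSK by 7.60 (SE 0.76, adjusted p = 0.0116), and the list median was −0.45. Wfdc21 missed in LSK with array weights (adjusted p = 0.116), median scaling (0.108) and no filter on dim probes (0.0602). With 1 array left out its LSK difference was 7.26 to 7.94. The LSK call of Wfdc21 was lost without deficient LSK replicate 2 or either wild-type LSK array. Its GMP difference was 4.34 (adjusted p = 0.107). Stfa1 and Stfa2l1, stefin A genes that inhibit cysteine cathepsins, had differences of 4.75 and 4.53 in LSK and of 5.43 and 6.16 in GMP, none past the threshold. In GMP 0 genes of the list were called by limma and its median was 0.047. At an unadjusted p under 0.05 there were 8 of the 39, against 4.58% of all probes. Stfa1 was not well above background in wild-type LSK, and its bound there is at least 16.9-fold. They belong to a family of near-identical copies, so probes may share signal between them. From LSK to GMP in wild type Slpi, an inhibitor of elastase and cathepsin G, rose by 5.53 and Wfdc21 by 4.34, while Igf2r, the mannose-6-phosphate receptor, fell by 5.24, and the median was 0.39. All 3 missed without any 1 of the 4 wild-type arrays, with adjusted p of 0.0601 to 0.0762 for Slpi, 0.105 to 0.319 for Wfdc21 and 0.111 to 0.167 for Igf2r. Ctsc, which activates the serine proteases, differed by 2.62 in wild type (adjusted p = 0.396) and 3.20 in deficient cells. No gene of the list passed by limma in deficient cells, where its median was 0.62. At an unadjusted p under 0.05 there were 8 of the 39, against 16.2% of all probes. Between genotypes Ctsc was at −1.86 in LSK and −1.27 in GMP, neither past the threshold. Serpinb1a, an inhibitor of elastase, proteinase 3 and cathepsin G, differed by 1.13 between populations in wild type.

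Among 21 regulators of granule gene transcription, Cebpe was the only one called. Cebpe, the factor that drives the later granulocytic stages, rose from LSK to GMP in wild type by 6.08 (SE 0.64, adjusted p = 0.00505) and in deficient LSK by 4.94 (SE 0.64, adjusted p = 0.0233). Cebpe missed between populations without either wild-type LSK array (adjusted p = 0.0674 and 0.0538). In LSK it missed with array weights (0.133), median scaling (0.117), no filter on dim probes (0.108) and only the 4 arrays compared (0.0549). With 1 array left out its LSK difference was 4.735 to 5.147. The LSK call was lost without deficient LSK replicate 2 or either wild-type LSK array. Its mean level was −1.21 in wild-type LSK, 3.73 in deficient LSK, 4.87 in wild-type GMP and 4.70 in deficient GMP, the same order as Hp. Cebpa differed by 3.14 between populations in wild type (adjusted p = 0.169) and by −1.67 between genotypes in GMP (adjusted p = 0.963). Spi1, which encodes PU.1, differed by 2.48 between populations in wild type and by −3.07 between genotypes in GMP (adjusted p = 0.963), the largest genotype difference of the list there, followed by Gfi1b (2.15). Spi1 was above background on 1 of the 2 deficient GMP arrays. Irf8, a factor of the monocytic branch, differed by 3.98 between populations in wild type (adjusted p = 0.0920). Gfi1 and Myb differed by 0.52 and 0.22 there. In LSK between genotypes, Csf2ra (−2.12) and Cux1 (−1.73) were the largest that did not pass. No regulator passed between genotypes in GMP or between populations in deficient cells by limma. There, 1 and 5 of the 21 were at an unadjusted p under 0.05, against 4.58% and 16.2% of all probes. The list medians were 0.85 between populations in wild type, 0.97 in deficient cells, −0.25 between genotypes in LSK and −0.16 in GMP.

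Likeness of profile was measured as the mean absolute difference over the 8 arrays after each gene's own mean was taken off, over 15867 named genes. Nearest to Mpo were Matn2 (0.19), Ppfia4 (0.24) and Ccl2 (0.28). Nearest to Elane were Apba1 (0.54), Cldn15 (0.54) and Rnf43 (0.56), and nearest to Hp were C3, the complement component (0.43), Mogat2 (0.44) and Cebpe (0.55). These distances describe the 8 arrays, which share scaling and slide. Some of the nearest genes were dim on the wild-type LSK arrays. Apba1 lay at −5.3 and −4.4 there, Rnf43 at −6.4 and −4.0 and Mogat2 at −6.6 and −5.4. Their likeness on those arrays rests on weak signal. Of the genes nearest to Mpo, Ccl2 lay at −3.22 and −3.17 on the wild-type LSK arrays. On deficient LSK replicate 2, with 34.3% of spots well above background, Ccl2 lay at −2.76, Matn2 at −1.86 and Ppfia4 at −0.91. Among the 9 genes themselves the closest pairs were Plac8 with Srgn (0.55), Mpo with Plac8 (0.66) and Ctsg with Ms4a3 (0.73).

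**Figure D4:**
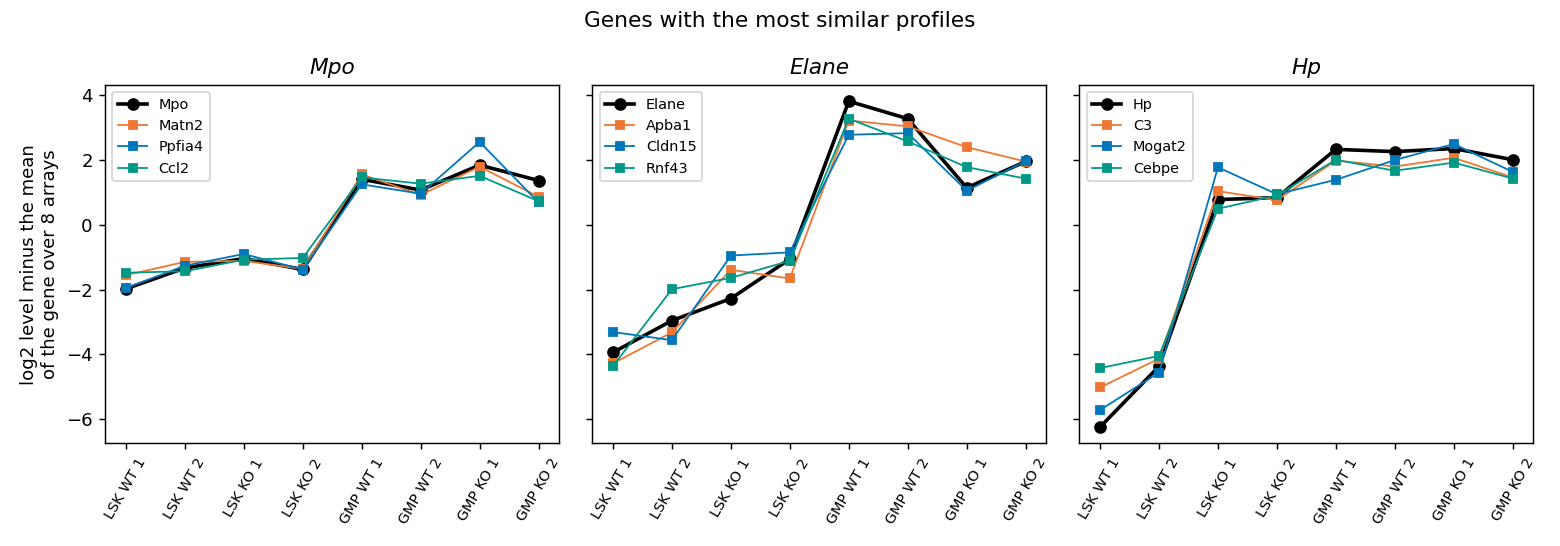
Profiles of Mpo, Elane and Hp (black) with the 3 genes nearest to each (colours) over the 8 arrays (y axis, log2 level minus the gene's mean; x axis, arrays; WT, wild type; KO, deficient). The Mpo panel steps up between LSK and GMP, the Elane panel falls back in deficient GMP, and the Hp panel steps up between wild-type and deficient LSK.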

How the data were processed

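Per the file headers, the scanner output came from Agilent Feature Extraction 10.7.3.1, a tool also listed in the submitters' processing notes, and the deposited processed signal of a spot is a background-corrected intensity on a linear scale. The value table deposited by the authors holds log2 values, and each column correlated at 0.999687 to 0.999965 with log2 processed signal centred on the 75th percentile and on each probe's median over arrays. Scale, centring and direction are thereby known, column medians ran from −0.26 to 1.24, and it served as an alternative. The number of arrays, 2 per group, limits the precision. No column of another sample was present (0), and no spot was saturated (0).

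Computed here were log2 processed signal minus the 75th percentile of each array, with control and outlier spots left out (104 to 139 outlier spots per array) and spots of 1 probe averaged. Probes were kept (39120) where at least 1 group had both arrays well above background. Symbols came from RefSeq (GRCm38.p6) by transcript, for 26582 probes. Group means over all 8 arrays were fitted by lmFit, contrasts.fit and eBayes of limma 3.58.1 (R 4.3.3), with Benjamini-Hochberg adjustment over all probes, and the fit was tested on simulated data. For a gene, the probe with the highest mean counts. A fold against a group below background on all its arrays is a bound, the brighter group's mean against whichever is higher on each array, its own value or the lowest signal counted well above background. Alternatives covered background correction, scaling, filters, 1 probe a gene, blocks, array weights, intensity trend and arrays left out.

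The 9 genes and all lists (3 of the pathway, 9 of cell type markers) were chosen with earlier results of these data known. All 9 genes are named; from the pathway lists, the 3 largest differences that passed, the 2 largest that did not and 10 set examples, and from the marker lists counts with examples; by profile, the 3 nearest to Mpo, Elane and Hp. Files were read by the R package data.table (version 1.17.8), and matplotlib 3.10.9 under Python 3.11.15 drew the figures.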

Additional observations from a re-analysis of the deposited data

Results flagged for a closer look

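Elane stood out because the genotype difference ran in opposite directions in LSK and GMP: both deficient LSK arrays lay above both wild-type LSK arrays, and both deficient GMP arrays lay below both wild-type GMP arrays. The GMP difference minus the LSK difference was −3.78 (SE 1.05, unadjusted p = 0.00497 by limma), and it did not pass after adjustment over all probes (adjusted p = 0.975). Leaving out each array in turn kept it between −4.39 and −3.17. Its sign could not turn there, because Elane was flagged for pairs that lie apart in opposite directions. That unadjusted p also belongs to a gene picked on these values. Among all probes, 36.9% lay apart between genotypes in LSK and 39.2% in GMP, in either direction. The share apart in opposite directions was not computed.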

How the results depend on the processing

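Of the 962 results recomputed under an alternative, counted per probe and comparison, 881 kept direction and side of the threshold. That share does not measure stability. It includes the averaged difference for Hp alone, and the difference of differences for Hp, Elane, Plac8 (brighter probe), Srgn and Ms4a3 alone. Among those not counted, the averaged sign turned under some alternatives for Mpo, Elane, Ctsg and the brighter Plac8 probe. It held for Prtn3, Cst7, Ms4a3, Srgn and the second Plac8 probe. The sign of the difference of differences turned for Mpo, Prtn3, Ctsg, Cst7 and the second Plac8 probe. Blocks, array weights, the intensity trend and leaving out arrays of other groups do not alter a difference, so its direction could not turn there. Many of these results had also not passed as reported. The count of the 9 genes called in deficient against wild-type LSK, 1 as reported, was 0 with median scaling, no filter, array weights or without the pair of deficient LSK replicate 2 and GMP replicate 1, and 0 to 1 with 1 array left out. Averaged over populations, 1 as reported became 0 with quantile normalization, median scaling, no filter, 1 probe a gene, the authors' deposited table, array weights, that pair left out or the replicate block, and 0 with any 1 array left out. For GMP minus LSK in wild type, 4 became 7 with normexp, with only the 4 arrays compared and with that pair left out, 8 with array weights, and 0 to 5 with 1 array left out. In deficient cells, 0 became 8 with normexp, 3 with only the 4 arrays, and 0 to 6 with 1 array left out. The difference of differences had 1 called with slide row as a block, and GMP had 0 called under all 21 alternatives. Signs turned for uncalled genes: in LSK, Mpo was −0.43 with normexp and −0.13 with median scaling, and Ctsg −0.42 with normexp, −0.055 without wild-type LSK replicate 1 and −0.093 without deficient LSK replicate 1. In GMP, Mpo was −0.21 and Ctsg −0.022 with quantile normalization. Ctsg was −0.18, Ms4a3 −0.28 and Plac8 −0.18 without deficient GMP replicate 1 and likewise without that pair, and Hp was 0.060 without deficient GMP replicate 2. With 1 array left out, Ctsg ranged from −0.093 to 1.26 in LSK, and in GMP Ctsg ranged from −0.18 to 1.13, Ms4a3 from −0.28 to 0.96, Plac8 from −0.18 to 1.76 and Hp from −0.28 to 0.060. Probes called ranged from 0 to 2653 in LSK (79 as reported), 0 to 231 in GMP (42), 30 to 1144 averaged (184), 0 to 11 for the difference of differences (0), 2 to 2452 between populations in wild type (603) and 0 to 4623 in deficient cells (0). The causes were not tested. Between populations in wild type, leaving that pair out and using only the 4 arrays compared are the same fit. Deviations of same-numbered arrays correlated at −0.29 between LSK genotypes and 0.26 between GMP genotypes. The highest value was 0.36, between wild-type LSK and deficient GMP. Whether replicate numbers pair the samples was not settled. Same-numbered arrays of a population share a slide row, so the slide-row differences given for each gene use that pairing. With the replicate block 97 probes passed in LSK and 62 in GMP, with 1 gene of the 9 in LSK and 4 between populations in wild type. With the numbers crossed in LSK, a pairing chosen after seeing the data, 214 probes and 1 of the 9 genes passed. Slide row as a random block for the population contrasts was also added after seeing the data. Weak signal limits deficient LSK replicate 2 most, with 34.3% of spots well above background.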
